A study of Arabidopsis thaliana with 4 samples.

Results

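The MATE efflux family was described in roots of Arabidopsis thaliana seedlings exposed to aluminium (Al). Members were the loci whose gene name in the deposited tables contains the words MATE efflux, in either case, together with AT1G51340, which carries those words as well. The rule found 52 of 23381 listed loci, 1 of them (AT2G16905) annotated as a pseudogene. The rule reads gene names and no measured value, but every listed locus has at least 1 read in some library. Loci without reads could therefore not be members. The wild type Col and coi1-2, 1 mutant line of COI1, the F-box receptor of the hormone jasmonate, were each profiled by poly(A) RNA sequencing without Al (0 µM AlCl3) and with 10 µM AlCl3. All seedlings were 6 days old, grew in dilute MGRL nutrient solution, and were pooled at about 500 per sample, from which roots were taken. Sample titles and the treatment protocol put the exposure at 6 h, the design text at 24 h, and the titles of the libraries without Al read 0 h. Time in solution and Al therefore cannot be told apart if those roots were taken at the start. Each of the 4 groups held 1 library.

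MATE (multidrug and toxic compound extrusion) proteins are membrane carriers that move small organic molecules out of the cytosol in exchange for protons or sodium ions. Plants have an unusually large family of them, with substrates that include citrate, hormones, flavonoids, alkaloids and foreign toxins. In plant roots some members are known for releasing citrate, which binds Al outside the cell, and others for carrying citrate to the xylem, where it keeps iron mobile. Other members are known for removing toxins, for moving abscisic acid or for a part in making salicylate.

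Read depth was 6.93 to 7.80 M unique reads a library (M, 1e6), and a floor of 3 reads corresponded to 0.385 to 0.433 CPM. Median log2 ratios of RPKM + 0.5, with Al against without, were taken over loci with at least 1 RPKM in any library. They were -0.59 in Col and -0.32 in coi1-2. Values are therefore also given after TMM scaling, which brought these medians to -0.01 and 0.00. Root markers were present in every library, and several lists of them moved with Al. In the test of Al described below, 25.5% of all loci tested rose and 26.3% fell. Summed endodermis markers (8 genes, 6 of 7 tested fell) went from 884.7 to 110.4 RPKM in Col and from 926.9 to 182.1 in coi1-2. Summed root hair markers (8 genes, 6 of 8 tested fell) went from 1043.2 to 536.1 and from 1093.6 to 303.4. Of 5 root cap markers 4 were tested and 3 fell, with sums of 48.3 to 13.6 in Col and 46.9 to 15.1 in coi1-2. Markers of green shoot tissue (16 genes, 14 of 14 tested rose) went from 183.0 to 784.2 and from 233.8 to 466.4, and 1 or 2 of them were listed at 0 in each library. The part of these shifts in the members' values was not tested, and in such bulk samples fewer cells of a type and less RNA per cell cannot be told apart.

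The 300 bases before the transcription start are shown for the members with the largest rises and falls that had no annotated exon in that stretch. They were read from the TAIR10.1 assembly before the RefSeq gene start and are written 5′ to 3′ on the strand of the gene. Capitals mark 4 short words searched on both strands, TTGAC (the core of the W-box, to which WRKY factors bind), CACGTG (the G-box), TGACG (the as-1 type word bound by TGA factors) and CGCG (the core of the word bound by CAMTA factors). TTGACG holds both TTGAC and TGACG.
AT1G71140, chr1:26824264-26824563, plus strand: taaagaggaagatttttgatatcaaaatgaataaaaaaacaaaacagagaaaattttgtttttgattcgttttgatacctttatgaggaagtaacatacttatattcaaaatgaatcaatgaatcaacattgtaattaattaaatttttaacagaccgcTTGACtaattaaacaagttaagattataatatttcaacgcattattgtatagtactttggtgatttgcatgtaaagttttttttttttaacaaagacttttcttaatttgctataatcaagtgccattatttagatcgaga
AT2G04040 (DTX1), chr2:1336551-1336850, minus strand: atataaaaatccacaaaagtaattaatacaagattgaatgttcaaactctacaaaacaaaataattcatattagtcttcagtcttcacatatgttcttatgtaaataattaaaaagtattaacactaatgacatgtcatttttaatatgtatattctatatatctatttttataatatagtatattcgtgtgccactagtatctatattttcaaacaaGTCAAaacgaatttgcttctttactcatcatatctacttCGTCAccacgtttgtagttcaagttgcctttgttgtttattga
AT4G23030, chr4:12072460-12072759, plus strand: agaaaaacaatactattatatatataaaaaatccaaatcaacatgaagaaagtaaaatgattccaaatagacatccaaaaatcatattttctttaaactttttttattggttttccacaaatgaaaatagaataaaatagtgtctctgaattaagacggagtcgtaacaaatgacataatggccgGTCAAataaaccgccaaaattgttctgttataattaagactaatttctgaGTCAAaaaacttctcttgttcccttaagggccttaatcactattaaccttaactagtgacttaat
AT2G04070, chr2:1355884-1356183, minus strand: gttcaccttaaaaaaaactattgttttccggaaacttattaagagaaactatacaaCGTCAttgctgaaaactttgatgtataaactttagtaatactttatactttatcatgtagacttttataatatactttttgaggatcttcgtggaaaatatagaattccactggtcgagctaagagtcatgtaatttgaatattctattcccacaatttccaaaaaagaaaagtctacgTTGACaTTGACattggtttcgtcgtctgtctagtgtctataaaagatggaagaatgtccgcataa
AT2G04090, chr2:1364789-1365088, minus strand: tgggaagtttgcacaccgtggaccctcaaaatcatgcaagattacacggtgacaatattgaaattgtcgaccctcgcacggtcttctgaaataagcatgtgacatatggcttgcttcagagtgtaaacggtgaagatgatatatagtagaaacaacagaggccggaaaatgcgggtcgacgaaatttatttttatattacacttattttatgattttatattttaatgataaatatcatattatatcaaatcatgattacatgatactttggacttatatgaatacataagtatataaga
AT1G11670, chr1:3931702-3932001, minus strand: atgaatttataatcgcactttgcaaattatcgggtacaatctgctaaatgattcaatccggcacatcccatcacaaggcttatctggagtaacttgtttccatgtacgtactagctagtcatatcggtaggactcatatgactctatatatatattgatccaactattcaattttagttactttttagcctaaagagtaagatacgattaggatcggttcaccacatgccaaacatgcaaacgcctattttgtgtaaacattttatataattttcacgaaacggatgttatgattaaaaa
AT5G52050 (DTX50), chr5:21138403-21138702, plus strand: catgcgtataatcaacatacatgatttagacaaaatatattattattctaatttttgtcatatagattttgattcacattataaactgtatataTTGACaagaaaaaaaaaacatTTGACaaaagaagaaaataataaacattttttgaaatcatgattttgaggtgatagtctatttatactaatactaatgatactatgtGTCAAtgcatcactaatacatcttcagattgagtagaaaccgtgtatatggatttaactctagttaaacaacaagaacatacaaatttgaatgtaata
The word TTGAC or its complement stood in the windows of 8 of the 9 members that rose with Al in the test described next, in 3 of the 6 that fell and in 6 of the 17 that passed in neither direction. It stood in 26 of all 52 members and in 50.6% of 23188 windows of all genes, so it is a common word. AT5G52450 was the member that rose without it. With windows placed before the starts given in the deposited files, an alternative chosen after seeing the data, the counts were 9 of 9 and 3 of 6, against 51.0% of all windows. TGACG stood in 2 of the 9 (DTX1 and AT2G04070) and in 1 of the 6 (AT1G15160), against 21.7% of all windows. CACGTG stood in 2 of the 9 (AT1G15170 and ZF14) and in none (0) of the 6, against 7.6%. CGCG stood in 0 of the 9 and 0 of the 6, against 12.4%. Windows with annotated exons were counted as well. Among members that rose or fell these were AT1G64820, with 277 of 300 bases exonic, and AT1G15170, with 11. All word matches describe the letters of the windows and were not tested.

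At least 1 read was listed for 49, 45, 49 and 47 members in the 4 libraries. Values are given throughout in the order untreated Col, Al-treated Col, untreated coi1-2, Al-treated coi1-2. The family was carried by few genes. In Col without Al, AT1G11670, AT1G61890, AT1G47530, AT3G26590 and AT5G65380 made up 64.1% of the summed RPKM (reads per kilobase of transcript and 1e6 reads), and the same 5 loci made up 63.0% in coi1-2 without Al. With Al the 5 highest were AT1G15170, AT1G71140, AT1G47530, AT1G61890 and AT3G21690 in both genotypes, with 56.9% in Col and 55.5% in coi1-2. At the other end, 17 members had fewer than 10 reads in every library, and 22 reached 5 RPKM in at least 1 library. The family's summed level was 607.4, 517.8, 559.6 and 517.9 RPKM, lower with Al in both genotypes, but with TMM scaling it was 508.6, 687.4, 467.4 and 557.8, higher with Al in both. The direction of the sum therefore rests on the scaling, whereas the exchange of leading members does not, because shares within a library carry no scaling factor.

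**Figure D1:**
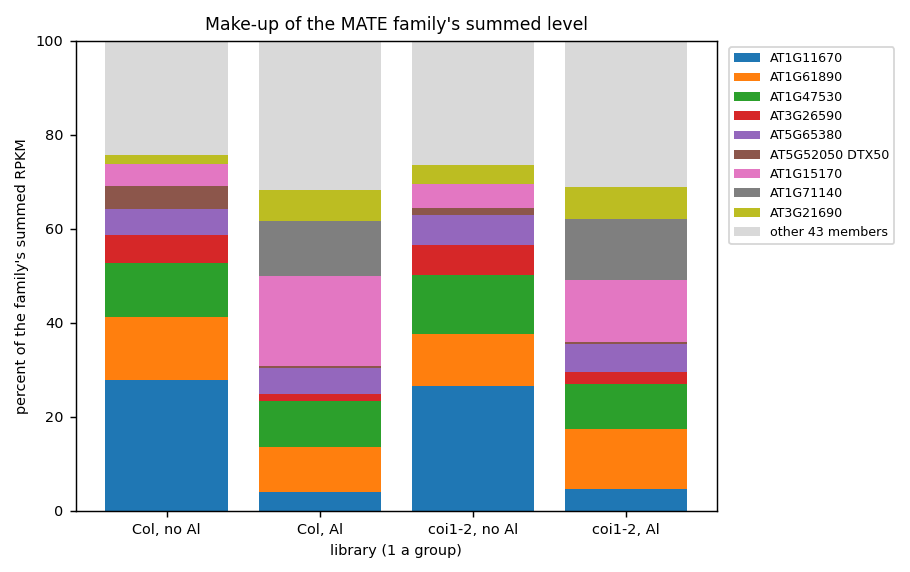
Stacked bars give the percent of the family's summed RPKM taken by 9 members and by the other 43 in each of the 4 libraries (1 a group). AT1G11670 took 27.7% and 26.5% of the sum without Al and 3.92% and 4.55% with Al, while AT1G71140 and AT1G15170 grew.

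Of the 52 members, 32 had enough reads for edgeR's quasi-likelihood test of Al over both genotypes (2 libraries per arm, 1 residual degree of freedom, Benjamini-Hochberg adjustment over 16477 loci). With Al, 9 members rose (28.1% of those tested, against 25.5% of all loci) and 6 fell (18.8%, against 26.3%). In this fit the shares in each direction were near those of all loci. With an offset for transcript length in edgeR, 15 rose (46.9%, against 26.3% of all loci) and 6 fell (18.8%, against 22.8%). With limma-trend on unscaled log2 RPKM, 8 rose (25.0%, against 14.4%) and 8 fell (25.0%, against 39.9%). The median log2 fold change was 0.34 over the tested members and -0.03 over all loci, and the members' median is the same with AT1G71140 at its bound. The 9 that rose held DTX1, ALF5, ZF14 and 6 members known only by their family, and the 6 that fell held DTX50 and 5 such members. The other 17 tested members did not pass in either direction, and 20 had too few reads. No group repeats a library, so the 1 residual degree of freedom is the difference in Al response between the genotypes. Variance was pooled over loci with 192.8 prior degrees of freedom. The p-values therefore rest mostly on this pooled spread, which the additive model leaves between these samples, and not on replicates.

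**Figure D2:**
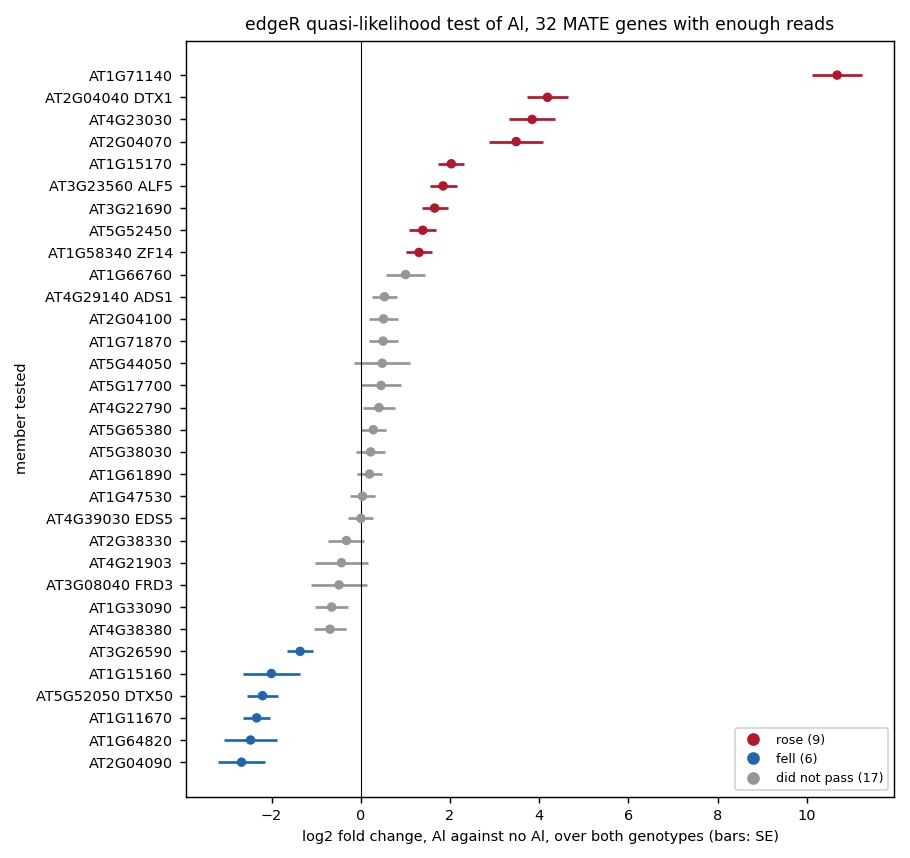
Points are edgeR's log2 fold changes for Al over both genotypes, with bars of 1 SE, for the 32 members tested. AT1G71140 stands apart at 10.68, the 8 others that rose lie between 1.3 and 4.19, and the 6 that fell lie between -2.68 and -1.36.

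Among carriers of toxins, DTX1 (AT2G04040, chromosome 2, 1334512-1336489), which exports plant-derived and foreign toxic compounds and cadmium, was at 0.416, 8.42, 0.786 and 7.12 RPKM, from 5, 90, 9 and 79 reads. Both libraries with Al were high and both without were low, with no overlap. Its log2 fold change was 4.19 (SE 0.46, adjusted p = 3.36e-15, edgeR). ALF5 (AT3G23560, chromosome 3, 8454116-8456681), needed for the resistance of roots to toxins in their medium, was at 7.88, 19.0, 7.22 and 19.0 RPKM. The libraries with Al were nearly equal and more than 2-fold above both others, a log2 fold change of 1.84 (SE 0.30, adjusted p = 6.87e-08, edgeR). Its neighbour AT3G23550, 85.3% identical in protein sequence, had 3, 6, 6 and 1 reads and was not tested.

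Among carriers linked to hormones, DTX50 (AT5G52050, chromosome 5, 21138862-21140643), an exporter of abscisic acid, was at 29.9, 2.59, 7.71 and 2.18 RPKM, from 416, 32, 102 and 28 reads. It was highest in Col without Al, lower in coi1-2 without Al, and low in both genotypes with Al. Its log2 fold change with Al was -2.21 (SE 0.35, adjusted p = 2.79e-08, edgeR). EDS5 (AT4G39030), a plastid carrier with a part in making salicylate, was at 30.2, 16.8, 23.0 and 20.3 RPKM. Both libraries without Al were the higher on this scale, but after TMM scaling in edgeR the log2 fold change was 0.00 (SE 0.28, adjusted p = 0.997, edgeR). The unscaled log2 ratios of -0.83 in Col and -0.18 in coi1-2 stand beside medians of -0.59 and -0.32 over loci of at least 1 RPKM.

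Among citrate carriers, AT1G51340 (chromosome 1, 19031997-19034979), known in Arabidopsis for releasing citrate from Al-exposed roots, had 3, 2, 2 and 8 reads, or 0.206, 0.154, 0.144 and 0.595 RPKM. It was highest in coi1-2 with Al, but the exact 95% counting interval of the log2 read ratio with Al against without ran from -0.28 to 5.32 in coi1-2 and from -4.0 to 2.71 in Col. A change with Al was therefore not detectable at this depth, and the locus had too few reads for the test. The tables list 1 isoform of it, of which 376 of 2614 exonic bases (14.4%) lie in none of its other isoforms in RefSeq, which has 5. Because the reads counted are unique ones, reads that isoforms share may be missing from this locus. FRD3 (AT3G08040), which loads citrate into the xylem and is 59.4% identical to AT1G51340, the closest of all members, had 13, 6, 13 and 6 reads. Of its exonic bases, 3.7% and 0.0% belonged to either listed isoform alone, and its log2 fold change was -0.49 (SE 0.63, adjusted p = 0.535, edgeR). Of 21 members with more than 1 RefSeq isoform, 10 had fewer than 10 reads in every library, and of 30 with 1 isoform, 6 did. The RefSeq isoforms need not be those of the deposited tables, since ALF5 has no exonic base free of its other isoform there (0.0%) and still had 95 to 242 reads.

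Of 2 members with a role in development or defence, ZF14 (AT1G58340, also BCD1), which affects the rate of organ initiation and iron homeostasis under osmotic stress, was at 10.7, 21.9, 12.3 and 17.9 RPKM. Both libraries with Al were above both without, with a log2 fold change of 1.3 (SE 0.29, adjusted p = 8.02e-05, edgeR). ADS1 (AT4G29140, also ADP1), a negative regulator of disease resistance, was at 23.4, 23.4, 20.4 and 20.8 RPKM. It was level within each genotype, and its log2 fold change of 0.53 did not pass (SE 0.28, adjusted p = 0.105, edgeR).

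The remaining members are known in the files only by their family name. AT1G71140 (chromosome 1, 26824677-26826748) had 1, 647, 0 and 738 reads, or 0.0831, 60.5, 0 and 66.5 RPKM. It was nearly unread without Al and among the 5 highest members with Al in both genotypes, with reads over 97.2% and 96.8% of the transcript's length. In coi1-2 it was 253.8-fold higher with Al when 3 reads were taken as the floor of the library at 0. The exact 95% counting interval of the read ratio in coi1-2 began at 7.69 on the log2 scale and had no upper end. In Col the log2 ratio of RPKM + 0.5 was 6.71, and the exact 95% counting interval of the read ratio, without the pseudocount, ran from 7.03 to 14.82 on the log2 scale. The fitted log2 fold change of 10.68 (SE 0.56, adjusted p = 2.32e-42, edgeR) depends on the prior count because the libraries without Al hold 1 and 0 reads. Its closest member was AT1G15170, with 53.8% of residues identical, and it was 49.5% identical to DTX1.

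AT1G15170 (chromosome 1, 5220641-5222973) was the highest member with Al, at 28.6, 98.9, 29.4 and 69.1 RPKM. Its libraries without Al were alike, and both with Al were more than 2-fold higher (log2 fold change 2.03, SE 0.30, adjusted p = 1.42e-09, edgeR). AT4G23030 was at 0.765, 5.07, 0.179 and 4.15 RPKM, a log2 fold change of 3.84 (SE 0.52, adjusted p = 7.45e-11, edgeR). Its closest member was ZF14, with 57.3% of residues identical, which rose as well. DTX50, 57.0% identical to it and likewise of 1 exon, fell. AT3G21690 was at 11.4, 34.2, 21.9 and 35.8 RPKM, with the libraries with Al nearly equal and the one of coi1-2 without Al above that of Col without Al. Its log2 fold change was 1.66 (SE 0.29, adjusted p = 5.77e-07, edgeR). AT5G52450 was at 10.4, 24.2, 13.6 and 19.7 RPKM, a log2 fold change of 1.39 (adjusted p = 3.53e-05, edgeR). Markers of green shoot tissue rose in the same libraries, with the sums given above, and their part in these rises was not tested.

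AT1G11670 (chromosome 1, 3928162-3931576), the highest member without Al, was at 168.3, 20.3, 148.1 and 23.6 RPKM, from 2579, 276, 2159 and 333 reads. Both genotypes held it at a like level without Al and at a like, much lower level with it. Its log2 fold change was -2.34 (SE 0.30, adjusted p = 7.21e-12, edgeR). AT3G26590 was at 35.3, 7.03, 35.6 and 13.1 RPKM, likewise far lower in both libraries with Al, with a log2 fold change of -1.36 (adjusted p = 3.81e-05, edgeR). The 3 weaker members that fell were AT2G04090 (5.45, 0.201, 4.32 and 0.872 RPKM), AT1G64820 (2.29, 0.478, 3.84 and 0.276 RPKM) and AT1G15160 (2.01, 0.296, 1.93 and 0.380 RPKM). Each was higher in both libraries without Al than in either with it. Their edgeR adjusted p-values were 7.34e-06, 0.00019 and 0.00594. Endodermis and root hair markers fell in the same libraries, as given above, and their part in these falls was not tested.

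**Figure D3:**
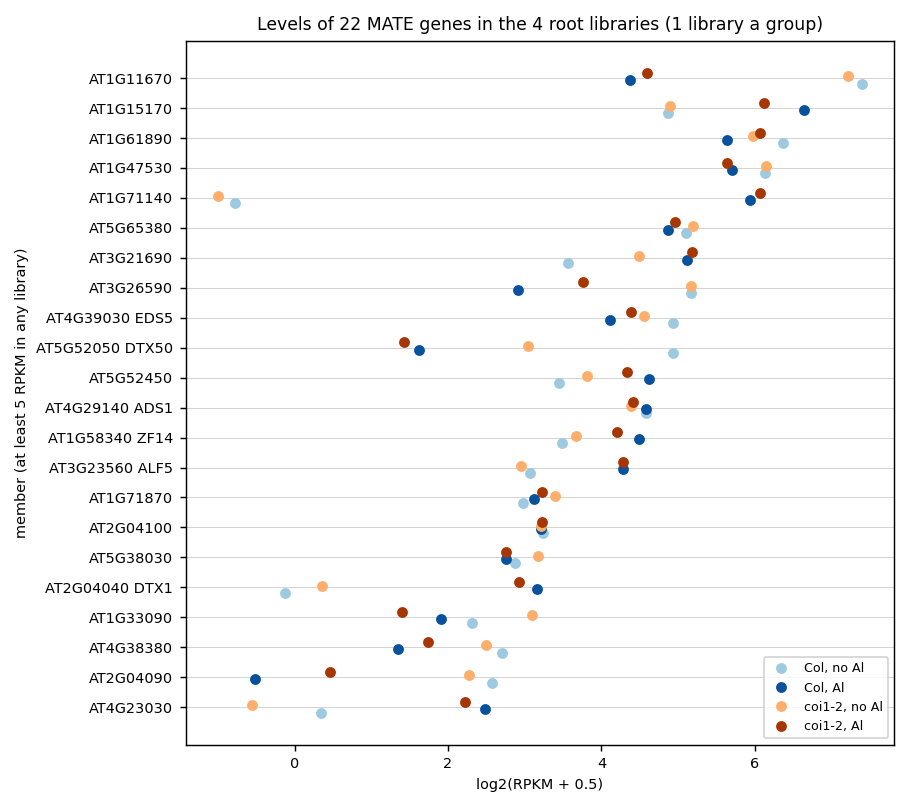
Each row is 1 of the 22 members with at least 5 RPKM in any library, and each point is its log2(RPKM + 0.5) in 1 library. The points without Al and with Al separate widely for AT1G71140 and AT1G11670 and lie almost on each other for AT2G04100 and ADS1.

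Several well-read members did not pass. AT1G61890 was at 82.3, 49.3, 62.3 and 66.7 RPKM, and AT1G47530 at 69.8, 51.5, 70.3 and 49.2. AT5G65380 was at 33.8, 28.6, 36.0 and 30.7 RPKM. Their log2 fold changes were 0.19, 0.04 and 0.28 (adjusted p = 0.586, 0.925 and 0.412, edgeR). AT2G04100 was at 8.95, 8.77, 8.76 and 8.87 RPKM, the narrowest spread among the named members, AT1G71870 at 7.36, 8.19, 10.0 and 8.89, and AT5G38030 at 6.84, 6.25, 8.55 and 6.25. AT4G38380 was at 6.03, 2.04, 5.14 and 2.83 RPKM, lower in both libraries with Al, with a log2 fold change of -0.69 (adjusted p = 0.106, edgeR). It was called lower by limma-trend on unscaled log2 RPKM (-1.06, adjusted p = 0.0198, limma), as was AT1G33090 (-1.04, adjusted p = 0.0229, limma). AT1G66760 came nearest to the threshold from above, with a log2 fold change of 1.0 (SE 0.45, adjusted p = 0.0504, edgeR). Its reads covered at most 7.51% of the length of either listed isoform in any library. Of its exonic bases, 0.0% and 5.0% belonged to either listed isoform alone, so reads that isoforms share may be missing. AT1G61890, AT5G65380, AT2G04100, AT1G66760, ADS1 and AT5G17700 passed as higher once an offset for transcript length was added.

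In the edgeR test, close relatives went in opposite directions in 3 groups, in a fit where 25.5% of all loci rose and 26.3% fell. That number of groups was not tested. Across 51 RefSeq proteins of 466 to 560 residues, pairs were 10.5% to 91.4% identical (median 30.4%), and 36 members formed 12 groups linked at 60% identity, 3 of which held both a member that rose and one that fell. On the chromosomes, 20 members lay in 6 clusters of neighbours within 20 kb. The largest cluster (chromosome 2, 1334512-1379130, minus strand) holds DTX1, AT2G04050, AT2G04070, AT2G04080, AT2G04090 and AT2G04100, with 67.2% to 91.0% identity. Of its 6 genes, DTX1 and AT2G04070 rose, AT2G04090 fell, AT2G04100 did not pass, and AT2G04050 and AT2G04080 were not tested. AT2G04070 was at 0.079, 1.78, 0.498 and 2.83 RPKM (log2 fold change 3.48, SE 0.61, adjusted p = 3.4e-07, edgeR). AT2G04050, with 0, 8, 2 and 19 reads, was higher in both libraries with Al than in either without. AT2G04090 and AT2G04100, which are 91.0% identical, went from 61 to 2 and from 116 to 101 reads in Col. Of the 49-base words of the AT2G04090 coding sequence, 16.1% also occur in the coding sequence of another locus, so reads of such stretches may be lost or split.

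The 4 neighbours from AT1G15150 to AT1G15180 (chromosome 1, 5212615-5226702) are 81.6% to 91.4% identical. AT1G15170 rose and AT1G15160 fell, although 84.9% of their residues agree, and AT1G15150 and AT1G15180 had at most 4 reads in any library. The fall of AT1G15160, from 23, 3, 21 and 4 reads, did not pass with DESeq2 (adjusted p = 0.169, DESeq2). Of the 49-base words of the coding sequence, 12.5% of AT1G15170 and 7.56% of AT1G15160 also occur in another locus. In the group of AT1G11670, which is not a cluster of neighbours, AT1G11670 fell, AT1G61890 (84.4% identical to it) did not pass, and AT3G21690 (64.0% identical) rose. AT3G26590 fell, and its 88.6% identical relative AT5G38030 did not pass.

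**Figure D4:**
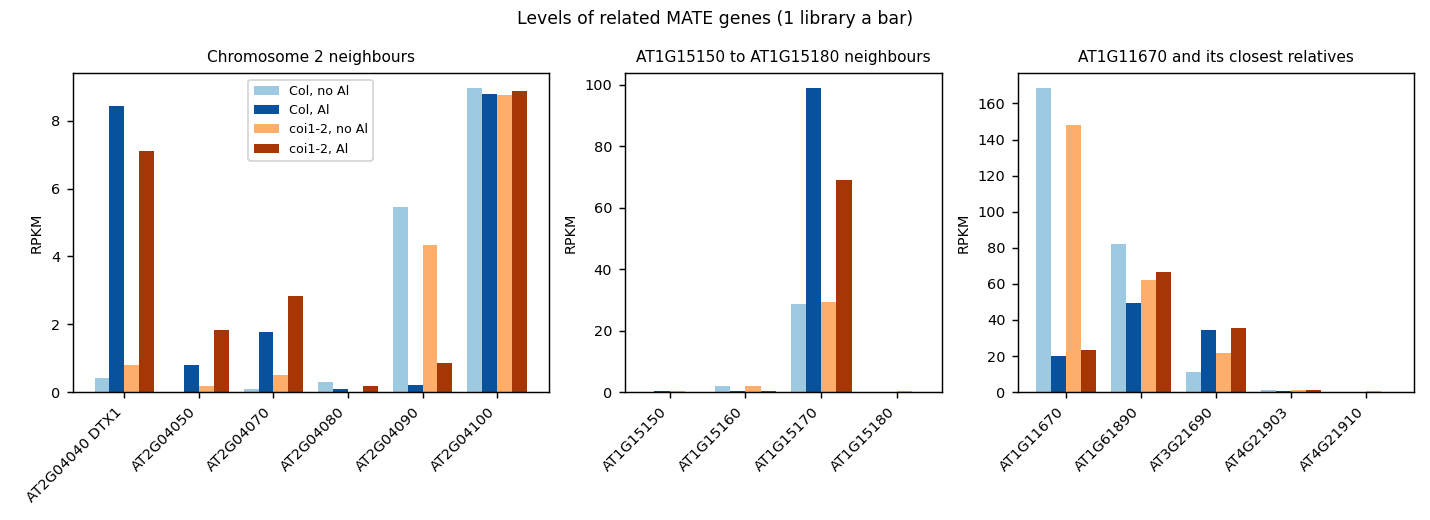
Bars give RPKM in the 4 libraries (1 library a bar) for the chromosome 2 neighbours, the neighbours of AT1G15170 and the relatives of AT1G11670. DTX1 and AT1G15170 are tall in the libraries with Al, and AT2G04090 and AT1G11670 in those without, where AT1G11670 reached 168.3 RPKM.

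Within each genotype, 2 libraries were compared without a test. Genes were called where log2(RPKM + 0.5) differed at least 2-fold and the exact 95% counting interval of the read ratio excluded no change, among loci with at least 1 RPKM in any library (17514 loci, 32 members). In Col, 10 members were higher with Al (11.4% of all loci were) and 9 were lower (35.8%). With TMM scaling 10 were higher (22.2%) and 6 lower (20.5%), the 3 lost being AT2G38510, AT4G21903 and AT4G38380. In coi1-2, 7 members were higher (9.37%) and 7 lower (23.2%), and with TMM scaling 9 (14.8%) and 7 (14.7%). The members' median log2 ratio was -0.23 in Col and -0.07 in coi1-2, above the medians over the 17514 loci given earlier. DTX1, ALF5, AT1G71140, AT1G15170, AT4G23030, AT2G04050 and AT2G04070 were higher in both genotypes, and AT1G11670, AT1G15160, AT1G64820, AT2G04090, AT3G26590 and DTX50 lower in both. AT3G21690, AT5G52450 and ZF14 were called higher in Col only, with log2 ratios of 1.55, 1.17 and 1.0 there against 0.70, 0.52 and 0.53 in coi1-2. With TMM scaling AT3G21690 was called higher in coi1-2 as well, at 1.06. None of these 3 passed the size rule for a difference between genotypes on the unscaled values.

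**Figure D5:**
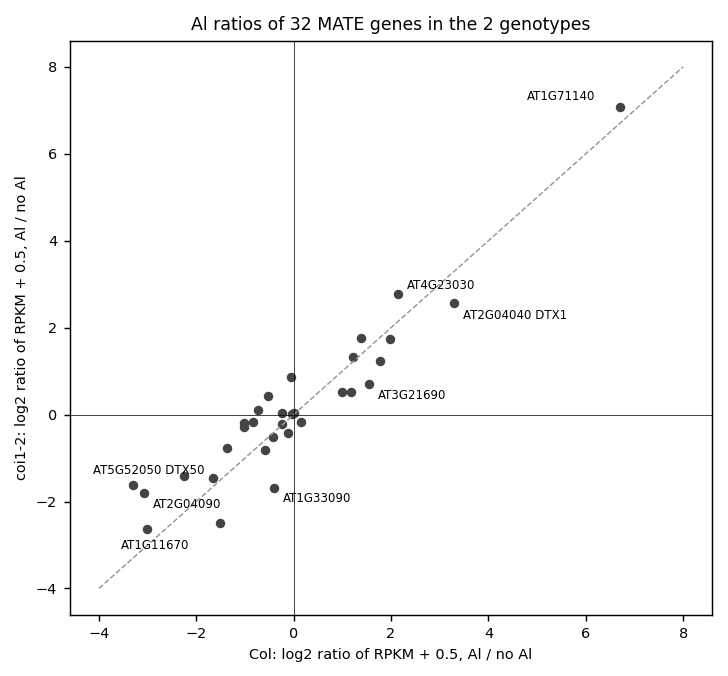
Each point is 1 of 32 members with at least 1 RPKM in any library, placed by its log2 ratio of RPKM + 0.5 with Al against without in Col (horizontal) and in coi1-2 (vertical), and the dashed line marks equal ratios. DTX50 lies above the line (-3.30 and -1.61) and AT1G33090 below it (-0.40 and -1.69).

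The genotypes differed in few members. Over both treatments, 0 members were higher in coi1-2 by edgeR (0.158% of all loci were) and 1 was lower (0.431%). At an unadjusted p below 0.05 in edgeR, 0 members were higher (3.63% of all loci) and 1 was lower (4.37%). DESeq2 called 0 members higher (0.0189%) and 0 lower (0.0821%). The lower member was DTX50, with a log2 fold change of -1.42 (SE 0.35, adjusted p = 0.0152, edgeR), and this call is lost with DESeq2's size factors in edgeR (0.0712), with DESeq2 (0.878), with limma-trend on log2 RPKM (0.417) and with the most read isoform per locus (0.125). Without Al, 0 members were higher in coi1-2 than in Col by the size rule (1.43%) and 1 was lower (1.34%), which was again DTX50. Its log2 ratio was -1.89, with a counting interval of -2.28 to -1.64. With Al, 0 were higher (7.87%) and 0 lower (1.87%), and DTX50 had a log2 ratio of -0.20 with an interval of -1.03 to 0.53.

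The log2 ratio with Al against without was higher in coi1-2 than in Col, by at least 1 and with a 95% counting interval that excluded 0, in 1 member (7.01% of all loci) and lower in 1 (1.91%). DTX50 had a difference of 1.69 (interval 0.90 to 2.48), since it fell from a lower starting level in coi1-2 to a like level with Al. AT1G33090 had 63, 41, 108 and 28 reads, or 4.45, 3.26, 8.02 and 2.14 RPKM, and a difference of -1.29 (interval -2.11 to -0.47). It was highest in coi1-2 without Al and lowest in coi1-2 with Al. With TMM scaling AT3G21690 joined it, at -1.14. These intervals cover counting error only, and neither value has a replicate.

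Beside the family, 12 genes of organic acid release and Al tolerance outside it were followed, chosen with earlier results known. Of 10 tested, 7 rose and 0 fell (edgeR, median log2 fold change 1.21). In the same fit 25.5% of all loci rose and 26.3% fell. ALMT1, the malate channel that excludes Al, was at 0.082, 8.57, 0.258 and 20.2 RPKM, PGIP1, a polygalacturonase inhibitor of the cell wall, at 1.32, 66.4, 0.692 and 54.2, and GDH1, a glutamate dehydrogenase, at 32.7, 201.0, 31.7 and 242.2. Of 17 genes of inducible detoxification, likewise chosen with earlier results known, 16 were tested. In the edgeR test 15 rose and 0 fell (median 3.45), against the same 25.5% and 26.3%. The glutathione transferase GSTF6 was at 7.09, 283.7, 2.95 and 232.0 RPKM, high in both libraries with Al. The glycosyltransferases UGT73B4 and UGT74E2 had 0, 11, 0 and 11 reads and 1, 25, 1 and 13 reads. Of 12 MATE-type carriers with a known role, chosen in the same way, 10 were members and 9 were tested. Of these 9, 3 rose (DTX1, ALF5 and ZF14) and 1 fell (DTX50), against 25.5% and 26.3% of all loci. The 2 whose gene names lack the words MATE efflux were TT12, a vacuolar carrier of flavonoids in the seed coat, at 0 reads in every library, and FFT, a flavonoid carrier, with 60, 71, 71 and 49 reads.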

How the data were processed

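Roots of 4 groups, 1 library each, were compared from 4 tables of transcripts. The deposited counts are whole numbers of unique reads per transcript, the deposited RPKM is that number over transcript length and library total, and the deposited coverage is the percent of the length that reads cover, per the file headers. The aligner used is not given in the sources used here, nor is the build. All 25917 transcripts matched by identifier lay on the same chromosome in TAIR10.1, and 97.5% of them held its coding region, so file coordinates are printed for genes and TAIR10.1 ones for windows. Reads and RPKM were summed over isoforms, and a transcript not listed was taken as 0. No strand-keeping step is described, so antisense reads cannot be told apart.

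Al and genotype were tested as additive terms with edgeR 4.0.16 (TMM, filterByExpr, quasi-likelihood test, Benjamini-Hochberg adjustment at 0.05, common dispersion 0.0385). This test gives no SE, so the SE printed is the absolute log2 fold change over the square root of the test's F statistic. Comparisons of 2 libraries carry no test, and their intervals are Clopper-Pearson ones, or for a difference of ratios a normal approximation from reads + 0.5. Intervals and floors cover counting error only, since copies made by PCR are not separate molecules. Proteins were translated from TAIR10.1 and aligned with mafft 7.526. Alternatives used DESeq2 1.42.0, limma 3.58.1, other pseudocounts, filters and scalings. The members and lists were chosen with earlier results of these data known. Named were AT1G51340, members past a test or at 5 RPKM in any library, and up to 3 genes per list with the largest change past the test, with the markers given as sums. AT1G66760, AT2G04050, AT2G38510, AT4G21903, AT5G17700, AT3G23550, AT4G22790, AT5G44050, AT1G15150, AT1G15180, AT2G04080, FRD3, TT12 and FFT fall outside this rule and were named after their values were seen.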

Additional observations from a re-analysis of the deposited data

How the results depend on the processing

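No paired analysis was possible because each group holds 1 library and the labels give no replicate numbers. Leaving out a library was not run, since the test would keep no residual degree of freedom. The family's summed RPKM, lower with Al as deposited, was higher with TMM factors (508.6, 687.4, 467.4 and 557.8). No member past the edgeR test changed sign. Of those that did not pass, 10 had log2 fold changes above 0 in edgeR and below 0 with limma-trend on unscaled log2 RPKM, none past that test: EDS5 (-0.50), AT1G47530 (-0.47), AT1G61890 (-0.32), AT5G38030 (-0.27), AT5G65380 (-0.23), AT4G22790 (-0.095), AT5G17700 (-0.051), AT5G44050 (-0.030), AT1G71870 (-0.010) and AT2G04100 (-0.005). EDS5 was also below 0 (-0.003) with the most read isoform per locus. With the length offset 15 members rose in place of 9 (26.3% of all loci did), and the 9 were among them. The call of DTX50 as lower in coi1-2 was lost, leaving 0 members, with DESeq2 size factors in edgeR (0.279% of all loci), DESeq2 (0.0821%), limma-trend (0.31%) and the most read isoform. AT1G15160 did not pass with DESeq2 (adjusted p = 0.169, DESeq2), nor ZF14 with limma-trend (adjusted p = 0.0544, limma). With Al in Col, 5 of 22 members were lower under a filter of 5 RPKM (36.2% of all loci). Under the stricter interval rule, which asks that the interval lie beyond 2-fold, 6 were higher (7.25%) and 5 lower (25.3%). That rule left 0 members with a higher Al ratio in coi1-2 (0.925%) and 0 with a lower one (0.394%). A pseudocount of 0.1 gave 2 members lower in coi1-2 without Al (1.66%) and 2 with a higher Al ratio in coi1-2 (10.5%). TMM or median-of-ratios factors gave 2 with a lower ratio (4.31% and 4.57%). The cause of these shifts was not tested. Loci with under 10 reads, AT1G51340 among them, are too shallow for a difference to be seen.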
